A study of Caenorhabditis elegans with 12 samples.

Results

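The loci described here are 849 type II piRNA loci of Caenorhabditis elegans. In libraries of 1 cloning method (PIR-1, described below) they were at the floor in control animals and gave piRNAs after depletion of ATTF-6. They were chosen from the measured values themselves. Each held 3 counts or fewer in both control libraries and, averaged over both depleted libraries, a normalised count of 1 or more. A normalised count is the read count divided by a library constant of the authors (the denominator) and multiplied by a fixed factor. The 849 loci are part of 6278 type II loci listed in any library, of which 5611 had a piRNA value. One dominant type II locus, 21ur.type2-1, and an entry named let-7a were left out by the rule. Of the remaining type II loci, 915 held more than 3 counts in a control library. The other 4514 held 3 counts or fewer in both but stayed below the depleted limit of 1.

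ATTF-6 is an AT-hook DNA-binding protein. The depletion experiment used animals that carried wrdSi51, a transgene in which the mex-5 promoter drives the TIR1 protein, and these were the controls. The depleted animals carried the same transgene and a GFP::tev::aid tag on attf-6, so that ATTF-6 had the degron through which auxin triggers degradation. Both received 4 mM auxin from the L4 larval stage and were collected whole as adults. The mex-5 promoter is active in the germ line, so TIR1 was made there, while the RNA came from all tissues. The deletion experiment used the strain attf-6::3xflag without auxin as its control, and derivatives that lack 1 ATTF-6 binding site each, ΔPeak1 (chromosome IV, 13709294 to 13709476) and ΔPeak2 (chromosome IV, 14387943 to 14388536). The labels do not name the genome build of these positions. All animals were grown at 20 °C. The depletion experiment had 2 control and 2 depleted libraries made with the polyphosphatase PIR-1, which makes small RNAs with a monophosphate or a triphosphate at the 5′ end ready for cloning, and 1 control and 1 depleted CIP-TAP library, in which capped small RNAs (csRNAs) are cloned. The deletion experiment had 2 PIR-1 libraries in each of its 3 groups.

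piRNAs are small RNAs, usually with a 5′ uridine, that load onto PRG-1, the Piwi protein of the worm germ line, and silence matching transcripts. Each is made from its own short capped transcript, a csRNA, whose cap and first bases are removed before the 3′ end is trimmed. Type I loci lie mostly in clusters on chromosome IV and have an upstream element called the Ruby motif, whereas type II loci often lack this motif and coincide with transcription start sites spread over the genome. The annotation used here holds no positions for type II loci, so their chromosome, strand and nearest gene are not given.

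Summed counts ran from 15454564 to 31931330 in the 10 PIR-1 libraries, and the controls of the depletion experiment included the deepest one. A count of 3 corresponded to a normalised count between 0.382 and 0.789. Counts of 0 to 3 are governed by counting error, and without molecular identifiers PCR copies could not be told from separate molecules. The study describes the depletion libraries as biological replicates. For the deletion libraries the labels do not say whether they came from separate cultures, so their spread may be technical. The summed level of type I piRNAs, 358096 ± 44566.6 (SD, n = 2) in controls, was 29.3-fold lower in depleted animals. The 7 listed members of the miR-35 family, which are germline and embryo miRNAs, summed to 96713 to 99948 in controls and to 10904 to 16155 in depleted animals, while the glial miR-228-5p was at 4459 to 4657 and 6251 to 6944. The epidermal let-7-5p was at 12172 to 14749 in controls and 16984 to 19892 in depleted animals. The muscle, neuron and intestine miRNAs looked for (miR-1-3p, miR-124-3p and miR-60-3p), lin-4-5p and miR-42-3p were not analysed here. The study reports germline atrophy in animals depleted of ATTF-6 from the L4 stage. These libraries hold no measure of germline size. In whole animals fewer cells of a type and less RNA per cell cannot be told apart from such libraries. The part of the atrophy and of the fall in the miR-35 family in the results below was not tested.

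Taken as a sum, the 849 loci had normalised counts of 122.2 and 180.9 in control libraries, against 1890.5 and 2275.9 after depletion. Both depleted values lay far above both controls, but the loci were selected on exactly these values, so no test was made. The mean moved from 151.5 ± 41.5 to 2083.2 ± 272.5 (SD, n = 2 each), a 13.7-fold difference. The 915 loci already above 3 counts in a control library summed to 1787.9 ± 304.5 in controls and 6328.4 ± 489.7 in depleted animals, a 3.54-fold difference. The 4514 remaining loci moved from 226.3 ± 37.1 to 834.4 ± 114.4, or 3.69-fold. Levels are relative to their library, and the part of the fall of type I piRNAs in these 3 ratios was not tested. The rule also fixes the larger ratio of the 849 loci. After depletion they held less piRNA in all than the 915 loci did.

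**Figure D1:**
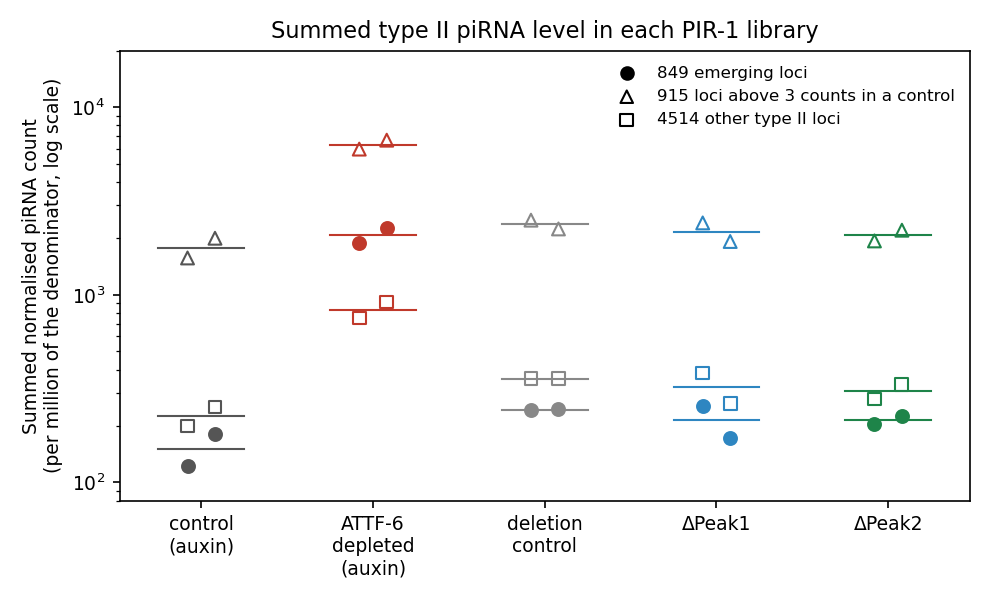
Summed normalised piRNA count (vertical axis, log scale, counts scaled to the denominator) in each PIR-1 library of the 5 groups, with 1 point per library and a line at the group mean. The 849 emerging loci (filled circles) lie between 122.2 and 256.9 in the 8 libraries with undepleted ATTF-6 and at 1890.5 and 2275.9 in the depleted ones, where they had been selected.

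Applied the other way round, the rule found fewer loci. With the floor asked of the depleted libraries and the level of the controls, 94 type II loci met it, against 849. Among 13458 type I loci 7 met the rule as stated and 4845 met its mirror image. Between the deletion strains and their control, 21 type II loci met the rule in ΔPeak1 and 33 met its mirror, and 18 and 45 did so in ΔPeak2. The last 4 numbers show how many loci met such a rule between groups in which ATTF-6 was not depleted.

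Most of the emerging loci were low. The depleted mean had a minimum of 1.00, quartiles of 1.35 and 2.87, a median of 1.88 and a maximum of 16.7, and 459 loci (54.1%) stayed below 2. Only 61 exceeded 5 and 8 exceeded 10, and the 10 highest loci made up 6.15% of the summed level, so the sum was spread over many loci. In the controls 160 loci had no read in either library, 341 had reads in only one of them, and 348 had between 1 and 3 reads in both. Against the mean that 3 counts give in the controls, 0.528, the depleted means were at least 1.89-fold to 31.7-fold higher, with a median bound of 3.57.

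**Figure D2:**
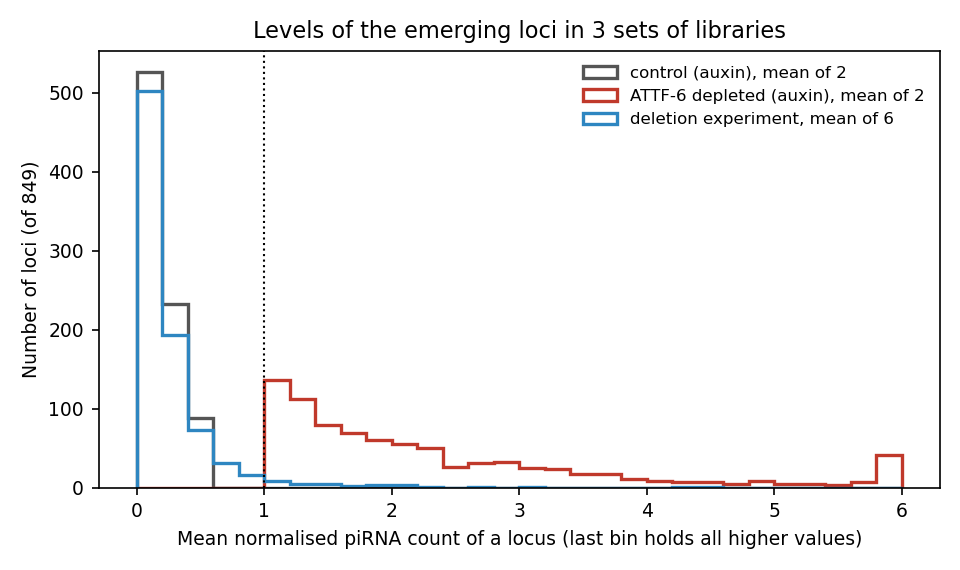
Number of the 849 loci (vertical axis) at each mean normalised piRNA count (horizontal axis) in the controls, the depleted animals and the deletion experiment, with the level of 1 that the rule asked of depleted animals as a dotted line. The depleted means start at the line and have their median at 1.88, and the means of the 6 deletion libraries have a median of 0.149, with 33 loci at 1 or above.

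The depleted replicates ranked the loci only in part alike. Of the 849 loci, 606 (71.4%) reached 1 in each depleted library and 243 in one alone, and 4 had no read in one of them. The larger of the 2 replicate values was a median of 1.55 times the smaller, and it was over 2 times in 253 loci. Across loci the log2 levels in the replicates gave a Pearson correlation of 0.537 and a Spearman correlation of 0.456 (849 loci, which share libraries and depth). All piRNA counts at these loci were whole numbers in the PIR-1 libraries.

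The locus with the highest depleted mean was 21ur.type2-3555. Its controls stood at 0.255 and 0.449, which is 2 counts in each, and its depleted libraries at 12.2 and 21.3, and it had no read in any of the 6 deletion libraries. The next, 21ur.type2-6568, went from control values of 0 and 0.449 to 17.3 and 16.0, with 0 to 0.631 in the deletion experiment. Both loci were therefore near 0 in every library except those of depleted animals.

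21ur.type2-896 had 0.382 and 0.449 in controls against 14.5 and 14.0. 21ur.type2-3567 had 0 and 0.225 against 12.2 and 15.5. 21ur.type2-7868 had 0.127 and 0.449 against 13.6 and 11.9. In these 3 loci the replicates after depletion lay within a narrow range. 21ur.type2-4908 had 0.382 and 0.674 in controls, the most the rule allows, and 12.8 and 11.9 after depletion. 21ur.type2-4685 had the same control values and 9.91 and 12.8 after depletion. The latter was the one of these loci with the most reads in the deletion experiment, 1.50 and 2.36 in its control, 2.94 and 3.14 in ΔPeak1 and 1.12 and 3.27 in ΔPeak2, all below the depleted values.

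Among the last 5 of the 12 highest loci, 21ur.type2-2856 reached 10.1 and 10.4 after depletion and 21ur.type2-1309 reached 11.4 and 8.47. 21ur.type2-1233 reached 12.8 and 7.02, the widest gap of these 5. 21ur.type2-5048 reached 8.88 and 10.2, and 21ur.type2-2151 reached 7.23 and 10.9. Their control values lay between 0 and 0.674. Of the 5, 21ur.type2-5048 alone exceeded 1 in the deletion experiment, with 1.77 and 1.75 in the control strain, 0.841 and 1.89 in ΔPeak1 and 2.24 and 2.18 in ΔPeak2.

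**Figure D3:**
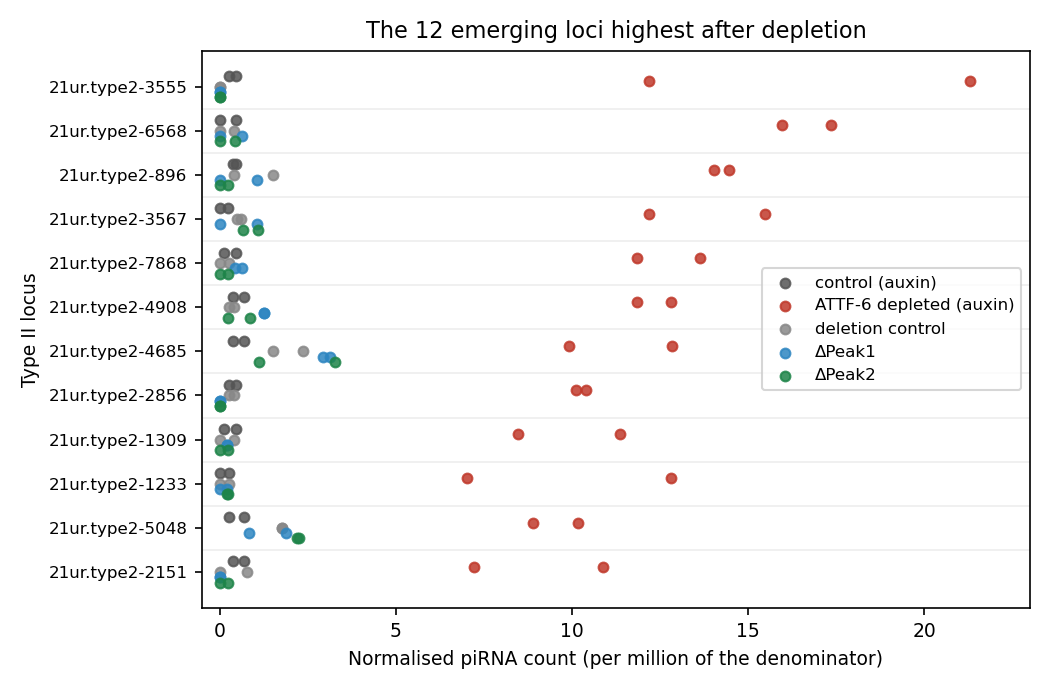
Normalised piRNA count (horizontal axis) in every PIR-1 library for the 12 loci with the highest depleted mean, 1 point per library and a colour per group. In each row both depleted libraries stand to the right of the other 8, which stay at 3.27 or below.

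Loci next to the limits differed little from those left out. Just inside the depleted limit, 21ur.type2-8239, 21ur.type2-8177 and 21ur.type2-794 each had 1.03 and 0.968. Just outside it, 21ur.type2-8306, 21ur.type2-1913 and 21ur.type2-5022 each had 1.24 and 0.726. At the limit on control counts, 21ur.type2-5510 (3 and 2 control counts) and 21ur.type2-2173 (2 and 3) were inside, with depleted means of 9.05 and 8.68. 21ur.type2-8636 (4 and 2 control counts) and 21ur.type2-1536 (4 and 4) were outside, with depleted means of 18.0 and 12.6. The first of these was higher after depletion than every locus inside, so the highest emerging loci have close equals among those the rule left out.

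In the quasi-likelihood test of edgeR on the 4 PIR-1 libraries of the depletion experiment, all 849 loci passed the filter and 795 were called higher, with none lower, at a Benjamini-Hochberg adjusted p of 0.05. Of all 33715 features tested, 12.7% were called higher, while 18392 were called lower. Of the type II loci already above 3 counts in a control library, 771 were tested. Among these 537 were called higher and 104 lower, so calls in this direction were not particular to the emerging loci. Since the rule used this contrast, the count of 795 describes the size of the gap against replicate spread and is no evidence for it. Without the second depleted library 594 of the loci passed the filter and 525 of these were called, and without the first control library 538 of 849 were called. With all 10 PIR-1 libraries in the fit 452 loci passed the filter and 442 were called. The remaining settings are given with the dependence on processing.

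The deletion experiment offered libraries that the rule had not used, from animals with intact ATTF-6 and without auxin. In its control strain 727 of the 849 loci (85.6%) were at or under 3 counts in both libraries, and 636 (74.9%) were so in all 6 libraries. There was no read in any of the 6 at 89 loci, and 15 loci were above 3 counts in all 6. Selecting with the deletion controls in place of the auxin-treated controls gave 961 loci. Of these 727 (75.7%) were among the 849, which is 85.6% of the 849. Both sets rest on the same depleted libraries, and the pair of control strains differ in genotype, treatment and experiment.

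Both depleted values exceeded all 6 values of the deletion experiment at 760 of the 849 loci. Across the 33355 features with a mean of at least 0.5 over these 8 libraries, 20.8% had both depleted values above all 6. Of the 849 loci, 556 passed that filter, and 488 of these had both depleted values above all 6. The depleted values were those the loci had been selected on, and nothing is read from this count. At 5 loci the mean of the deletion experiment exceeded that of the depleted libraries.

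Leaving aside those 12 loci, the most reads in the deletion experiment were found at 8 others. 21ur.type2-3778 stood at 7.47 and 3.26 in the deletion control, 3.36 and 3.98 in ΔPeak1 and 3.59 and 5.23 in ΔPeak2. After depletion it stood at 3.92 and 3.63, within the range of the deletion experiment, and the auxin-treated controls had 0.255 and 0.449. 21ur.type2-2262 had 5.50 and 2.50 in the deletion control, 3.99 and 4.82 in ΔPeak1 and 4.48 and 5.02 in ΔPeak2, mostly above its depleted values of 2.07 and 2.66. At both loci the depleted libraries lay above the auxin-treated controls but not above the deletion experiment.

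A similar overlap appeared at 21ur.type2-7659, with 3.72 and 5.81 after depletion and 1.26 to 4.80 in the deletion experiment, and at 21ur.type2-508, with 3.10 and 2.90 against 0.841 to 3.93. 21ur.type2-7048 had 2.89 and 2.42 after depletion and 0.838 to 3.14 in the deletion experiment, and 21ur.type2-9087 had 3.10 and 2.66 against 0.872 to 2.76. 21ur.type2-3572 did not overlap, with 5.58 and 8.96 against 2.25 to 3.34. 21ur.type2-8361 did not either, with 2.89 and 5.33 against 0.983 to 2.62.

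In the strains that lack an ATTF-6 binding site, the sum over the emerging loci could not pass a test, since 2 libraries stood against 2. The summed level was 242.7 and 246.0 in the deletion control and 256.9 and 173.2 in ΔPeak1. The ΔPeak1 libraries fell on either side of the control, with a log2 ratio of the means of -0.18 (exact two-sided permutation p = 1, n = 2 each). In ΔPeak2 the libraries gave 205.1 and 225.7, both below the control pair, with a log2 ratio of -0.18 (exact two-sided permutation p = 0.333, the smallest this design allows). Without the second ΔPeak1 library, the lower one, the log2 ratio for ΔPeak1 was 0.072, so its direction rests on that library.

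Locus by locus, 112 of the 849 loci had a mean of at least 0.5 over the deletion libraries and could be tested there. None was called in either deletion strain by edgeR, and before adjustment 4 of them in each strain had a p below 0.05. Over all 31462 features tested, 0.149% were called in ΔPeak1 and 0.308% in ΔPeak2, so the absence of calls is not particular to the 112 loci. The median log2 fold change of the 112 loci was 0.0032 in ΔPeak1 and -0.0034 in ΔPeak2, against -0.032 and -0.14 over all features. DESeq2 gave none of the loci an adjusted p in these contrasts. Loci above 3 counts in both libraries numbered 36 in the control strain, 30 in ΔPeak1 and 39 in ΔPeak2, and the 737 loci below the filter were not tested in these strains.

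The CIP-TAP libraries measured the capped transcripts of the same loci, which the rule had not used. Most of the emerging loci had csRNAs in control animals although their piRNAs were at the floor in the control PIR-1 libraries. More than 3 csRNA counts were found at 592 loci (69.7%) in the control library and at 594 (70.0%) in that of depleted animals, with 503 in both and 123 loci without a csRNA in either. Of the 915 loci with piRNAs in controls, 70.5% and 58.6% were above 3 csRNA counts in the control and depleted library, and of the 4514 remaining type II loci 31.6% and 29.0% were. The emerging loci were therefore like the 915 loci in the share with csRNAs in control animals. Since 1 library was made per group, intervals here and below cover counting error only and no test of the condition was possible. Between PIR-1 replicates the spread over features exceeded counting error, with a chi-square per degree of freedom of 4.82 to 20.9 across the groups. The counting intervals are therefore likely too narrow for differences between animals.

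On the scale of the denominator, the amount of csRNA at the emerging loci differed little between the libraries. It summed to 12506 normalised counts before and 13347 after depletion, a ratio of 1.07 (95% counting interval 1.05 to 1.08). Scaled to all counts of the library in place of the denominator, the ratio was 1.50, so its size depends on the scale. The same sum over the 915 loci was 25056 and 18981, a ratio of 0.758 (0.751 to 0.764), and over the 4514 loci 12903 and 12132, a ratio of 0.940 (0.929 to 0.952). Per summed counts these 2 ratios were 1.06 and 1.32. On both scales the ratio was highest at the emerging loci. At type I loci csRNAs summed to 505516 in the control against 4205 in the depleted library. All these levels are relative to their library, and the part of the type I fall in the other ratios was not tested.

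Of the 409 emerging loci with more than 10 csRNA counts in both libraries, 233 were higher and 176 lower after depletion, and the median log2 ratio was 0.15 (quartiles -0.33 and 0.74). At 66 loci the csRNA was over 2-fold higher and at 37 over 2-fold lower. The loci held their order, with a Spearman correlation of 0.808 between the 2 libraries over all 849 loci.

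**Figure D4:**
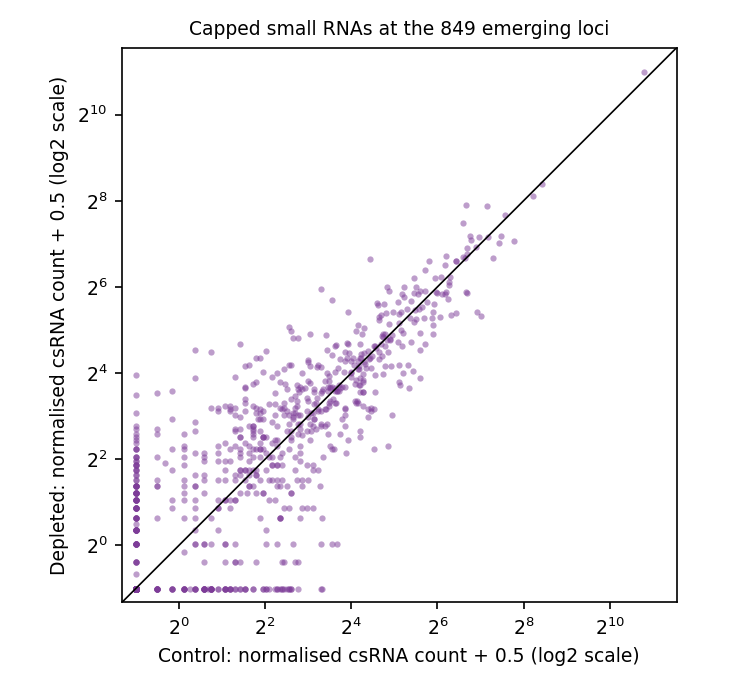
Normalised csRNA count plus 0.5 at each of the 849 loci in the control CIP-TAP library (horizontal axis) and the depleted one (vertical axis), both on a log2 scale, with the line of equal values. Points scatter about the line, and 21ur.type2-5458 stands alone at the top right at 1775 and 2019.

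In the PIR-1 libraries, which are not made to clone capped RNAs, csRNA reads at the emerging loci summed to 128.7 ± 19.3 in controls and 257.0 ± 11.4 in depleted animals (SD, n = 2 each), 2.00-fold higher. In the same libraries the csRNAs of the 915 loci stood at 0.843 of the control level and those of the 4514 loci at 0.713. In the deletion experiment the emerging loci gave 127.5 ± 24.1 in the control, 130.0 ± 26.5 in ΔPeak1 and 124.1 ± 10.7 in ΔPeak2. These values come from the contrast the rule used and are given as a description. Only 9 to 14 of the 849 loci had more than 3 csRNA counts in a library of the depletion experiment.

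Loci with more csRNA in control animals were more often among the emerging ones. Among the type II loci at the floor in the PIR-1 controls, 7.08% (213 of 3009) of those without a csRNA read in the control CIP-TAP library emerged (Wilson 95% interval 6.22 to 8.05). The share was 13.1% at 1 to 3 counts, 16.9% at 4 to 10, 25.4% at 11 to 30 and 37.9% at 31 to 100. It was 53.8% (92 of 171, interval 46.3 to 61.1) at 101 to 300 counts and 55.8% (43 of 77, interval 44.7 to 66.4) above 300. Intervals of neighbouring bins overlapped between 1 to 3 and 4 to 10 counts and between the last 2 bins, and nowhere else. Counted in the depleted CIP-TAP library, the share went from 6.63% without csRNA to 59.1% at 101 to 300 counts and 56.2% above 300. Loci in a bin share the libraries. Only uniquely placed reads were kept for piRNAs, while some csRNA counts were fractional, and the part of this difference was not tested.

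**Figure D5:**
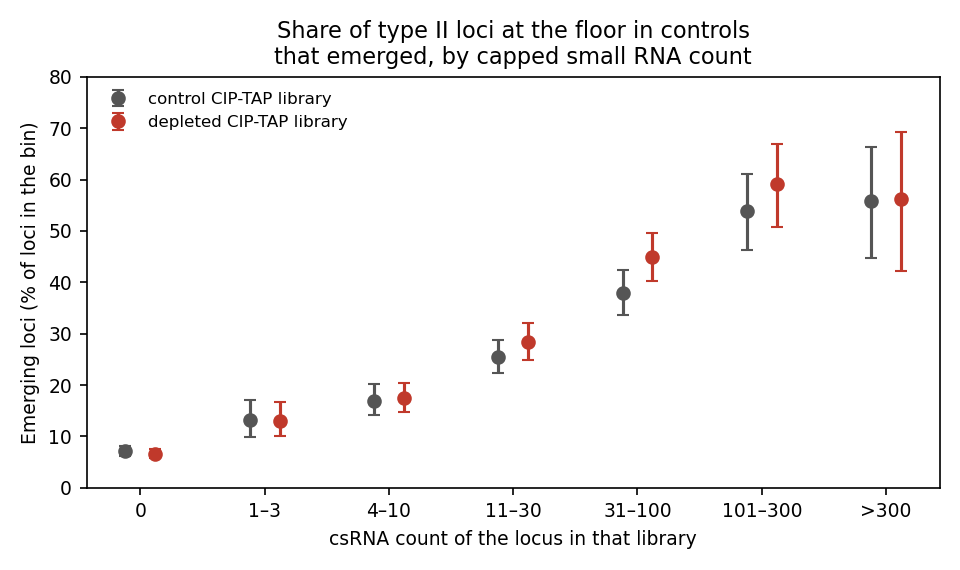
Share of type II loci at the floor in the PIR-1 controls that emerged after depletion (vertical axis, percent) by their csRNA count in the control or the depleted CIP-TAP library (horizontal axis), with Wilson 95% intervals. In the control library the share goes from 7.08% without csRNA to 53.8% at 101 to 300 counts.

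Among the emerging loci themselves the csRNA level ranked the piRNA level only weakly. The Spearman correlation of the depleted piRNA mean with the csRNA level was 0.167 for the control and 0.177 for the depleted CIP-TAP library (849 loci, which share libraries). The 592 loci above 3 csRNA counts in the control had a median depleted piRNA mean of 1.94, and the other 257 one of 1.67. Of the 12 highest loci, 21ur.type2-3555 and 21ur.type2-2856, had no csRNA read in either library.

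Leaving aside the loci already named, the 6 loci with the most csRNA ranged in depleted piRNA mean from 1.24 to 5.66. 21ur.type2-5458 held the most csRNA, 1775 normalised counts in control and 2019 in depleted animals, which is 14.2% and 15.1% of the csRNA of the 849 loci, and its piRNA went from 0 and 0.225 to 3.30 and 3.15. 21ur.type2-4487 had csRNA levels of 345.8 and 334.1, and its piRNA was 0.255 and 0 in controls and 2.89 and 0.726 after depletion. 21ur.type2-337 had csRNA levels of 296.0 and 277.8 and piRNA of 1.03 and 1.45 after depletion. At these 3 loci the csRNA level in the depleted library was 0.939 to 1.14 times that of the control, and the depleted piRNA mean was 3.23 at the first and below the median of the 849 loci at the others.

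At 21ur.type2-8590 csRNA stood at 141.5 before and 235.2 after depletion, a ratio of 1.66 (counting interval 1.51 to 1.84), and piRNA at 5.99 and 5.33 after depletion. 21ur.type2-1739 had csRNA of 101.6 and 240.2 and piRNA of 1.65 and 1.69 after depletion. 21ur.type2-7823 had less csRNA in the depleted library, 133.8 against 219.0, and piRNA of 1.45 and 1.94. The csRNA of these 3 loci therefore went in both directions, while their piRNA stood above the controls by the rule.

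Among the 12 loci highest in piRNA, csRNA of 21ur.type2-6568 rested on 4 control counts and 86 after depletion, a ratio of 28.5 (counting interval 10.7 to 106.9). That of 21ur.type2-1309 was 188.1 and 203.2, a ratio of 1.08 (0.981 to 1.19). At 21ur.type2-5048 it was lower in the depleted library, 12.6 against 34.5, a ratio of 0.365 (0.260 to 0.506). At 21ur.type2-4908 the ratio was 0.380 (0.246 to 0.572), and at 6 of the other loci it lay between 0.546 and 2.42. Among the loci with the most piRNA in the deletion experiment, 21ur.type2-3778 had 57 csRNA counts in the control against 2, a ratio of 0.046 (0.0055 to 0.176), and 21ur.type2-2262 had a ratio of 0.348 (0.290 to 0.414). The ratio was also below 1 at 21ur.type2-7659, 21ur.type2-3572 and 21ur.type2-8361, from 0.372 to 0.795. It was above 1 at 21ur.type2-7048, 5.54 (3.64 to 8.69), and 21ur.type2-9087, 3.37 (1.63 to 7.51), and 21ur.type2-508 had 0 csRNA counts in the control and 4 after depletion.

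Set against their csRNA, the emerging loci had few piRNAs in controls. The summed PIR-1 piRNA level divided by the summed CIP-TAP csRNA level was 0.0121 in controls and 0.156 in depleted animals. At the 915 loci it was 0.0714 and 0.333. The 2 quantities come from differently cloned libraries, so the ratio has no absolute meaning, and that of controls is low by the rule.

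The sequences deposited for the loci were all 21 nt long. Their GC content had a median of 38.1%, against 33.3% at the 915 loci and 33.3% at the 4514 loci, and means of 36.8% ± 9.92, 35.6% ± 9.52 and 32.4% ± 10.5 (SD over loci). A GC content of at least 50% was found in 10.6%, 7.43% and 5.63% of the 3 sets. Within the emerging loci GC content had a Spearman correlation of -0.0054 with the depleted piRNA level. These are descriptions over loci, which are not replicates.

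Every deposited type II sequence began with T or ended with A. Of the 849, 337 met only the first, 297 only the second and 215 both. Since piRNA reads were counted only when they began with T, sequences that only end with A read as the opposite strand of the piRNA, and the strand in which each was written was not settled. As written, the sequence at 202 emerging loci (23.8%) overlapped that of another type II locus by at least 12 bases. In 49 cases this was another emerging locus and in 55 it was one of the 915 loci. The share with any such overlap was 22.8% at the 915 loci and 15.5% at the 4514. Overlaps between sequences written on opposite strands were not looked for, so these numbers may be too low. Members of overlapping pairs may share a stretch of genome and so may not be independent loci, which was not tested for want of positions.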

How the data were processed

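The 12 libraries were deposited as one table each. Per the labels and the methods of the study, the authors trimmed reads with Trim Galore, aligned them to the WormBase genome (release WS279) with Bowtie without mismatches, and kept at piRNA loci unique sense reads of 15 to 40 nt with a 5′ T, and for csRNAs reads starting 2 nt upstream. The authors deposited estimated counts of reads at each feature. The deposited normalised signal is the count divided by 1 constant per library (the denominator), times a fixed factor. The methods describe that constant as the total of mapped reads. Summed counts exceed it in every library, so which reads entered it was not settled from the tables.

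Absent values were taken as 0. The members and the lists were chosen with earlier results of these data known. Estimated counts were rounded to whole numbers and tested by quasi-likelihood in edgeR 4.0.16 (R 4.3.3) with the denominator as library size, for features whose normalised counts averaged 0.5 or more (Benjamini-Hochberg adjustment over all features, threshold 0.05). Separate fits were made for the 4 PIR-1 libraries of the depletion experiment and the 6 of the deletion experiment. The fit was tested on simulated data. Sums were compared with exact permutation tests in scipy 1.17.1 (Python 3.11.15, numpy 2.4.6, pandas 2.3.3). Counting intervals are exact for ratios and Wilson for shares, at 95%. Alternatives were TMM, miRNA reads or all counts as the scale, DESeq2 1.42.0, other filters and limits, all 10 PIR-1 libraries, a replicate block and leaving out each library.

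Loci named are the 12 highest after depletion, the 8 further highest in the deletion experiment, the 6 further highest in csRNA, those next to each limit, and members called in a deletion strain, of which there were none. As positions of type II loci were not analysed here, no sequence is printed.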

Additional observations from a re-analysis of the deposited data

How the results depend on the processing

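The number of loci meeting the rule was 390 at a mean of at least 2 and 160 with no control count, against 849. It was 808 to 1054 with each library left out and 723 when scaled to miRNA reads. The mirrored rule gave 42 and 53 under those first 2 limits, against 94, and 81 to 114 with each library left out. Loci called higher after depletion, 795, numbered 849 with TMM, 749 of 829 scaled to miRNA reads, 778 without a filter, 781 with DESeq2, 116 of 116 at a filter of 2, 442 with all 10 PIR-1 libraries and 525 to 703 with each library left out, and none was lower in any. The rule asked for low controls and higher depleted means, so the direction of these calls follows from the selection. Their counts under the settings are therefore no evidence for the gap. Under the main setting 12.7% of all 33715 features tested were called higher, which is 4291, and 18392 were called lower. The number called higher moved with the setting as well. It was 10172 of 33715 with TMM, 7222 of 32416 with DESeq2 and 3262 of 33772 scaled to miRNA reads. Without a filter it was 4143 of 57293, at a filter of 2 it was 2993 of 22674, and with all 10 PIR-1 libraries 3605 of 33989. TMM moved the median log2 fold change of all features from -1.39 to -0.28. In the deletion strains the count of calls was 0 under every alternative that could be run, and DESeq2 left the loci out. The log2 ratio of the sums was 3.53 to 4.09 after depletion, -0.50 to 0.072 in ΔPeak1, where it turned without the second ΔPeak1 library, and -0.25 to -0.11 in ΔPeak2, with each library left out. Per miRNA counts the log2 ratio after depletion was 3.57, against 3.78 with the denominator.

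Loci above 0 in both libraries numbered 287 in the deletion control, 241 in ΔPeak1 and 244 in ΔPeak2. Above 3 counts in at least 1 library there were 122, 119 and 112, and in a single library 60 to 98, 48 to 101 and 66 to 85. The log2 ratio of csRNA was 0.59 per summed counts against 0.09, and 0.08 without 21ur.type2-5458, an alternative added after the data had been seen. The csRNA ratio in PIR-1 libraries was 0.85 to 1.16 on the log2 scale with each library left out, chosen after seeing the data.

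Replicate numbers were not treated as pairs in the main fits. Deviations of same-numbered libraries correlated at 0.139 between control and depleted, -0.045 for ΔPeak1 and -0.031 for ΔPeak2. With 2 pairs each, these values cannot settle whether same-numbered libraries were paired. With the replicate block 755 loci were called higher after depletion and 0 in either deletion strain. At 636 loci all 6 deletion libraries held 3 counts or fewer, where counting error is large.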
